A study of Mus musculus with 6 samples.

Results

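The forkhead and T-box transcription factors were examined in the mouse uterus after activation of β-catenin. The members were taken by symbol: every gene whose array annotation reads Fox, a letter from a to s and a number, or Tbx and a number. Foxa2 and Foxj1 were left out by that rule and appear below only among related genes. The rule found 47 genes, 35 forkhead and 12 T-box, among the 18193 genes on the arrays, and they were read by 103 of the 34945 probe sets that carry a single gene symbol. The rule itself uses no measured value, but it was proposed with earlier results of these data known.

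Forkhead proteins bind DNA through a winged helix domain, and the family includes factors that open chromatin in epithelia, factors of mesenchyme and blood vessels, and the FoxO proteins that insulin and growth factor signals drive out of the nucleus. T-box proteins share a different DNA-binding domain, first known from Brachyury, and pattern the mesoderm, heart, limbs and mammary gland in the embryo. In the uterus Foxa2 is known as a factor of the glands, Foxo1 as a factor of decidualizing stroma, and Foxl2 as a factor of the stroma and of ovarian granulosa cells.

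Uterine RNA was hybridized to 6 Affymetrix arrays, 3 of control mice and 3 of mutant mice. The mutant mice were Pgr cre/+ Ctnnb1f(ex3)/+: Cre is made where Pgr, the progesterone receptor gene, is active and deletes exon 3 of Ctnnb1, so that stabilized β-catenin builds up in those cells. The controls are given as wild type by the labels, and as carriers of either Pgr(cre/+) or Ctnnb1 f(ex3)/+ by the paper. Age is given as 4 weeks, or as 1 month in the methods, and since the methods also describe RNA pooled from 3 mice of each genotype, it is not settled whether arrays of a group stand for separate animals. The p-values therefore measure the spread between these arrays alone, and that spread may be technical.

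Each deposited value is the linear intensity of a probe set after RMA, which corrects background, equalizes the arrays and summarizes the probes of a set. Values are given below as log2 intensity, as mean ± SD of 3 arrays, and a difference is the mutant mean minus the control mean on that scale with its standard error (SE). Each gene was read by its brightest probe set. Intensities of different probe sets depend on their probes and do not rank the RNA amounts of different genes. Between 62.3 and 62.6% of probe sets lay under an intensity of 16, which is 4 on the log2 scale. A further gauge of background was a list of 16 measured genes of other organs or of the Y chromosome, none of which reached 16 on any array. Their highest single value was 3.41 on the log2 scale, that of Prm1 on the second control array. The means of the 16 genes ran from 1.48 to 3.12, with a median of 1.89. The suffix of the Prm1 probe set marks probes that may also match other transcripts, so 3.41 is a high bound for the background. Pairs of control arrays correlated at 0.992 to 0.996, mutant pairs at 0.994, and pairs across the groups at 0.981 to 0.990.

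Most members were dim. On all 6 arrays 28 of the 47 stayed at or below the highest value of the background genes, 17 stayed above it, and Foxq1 and Tbx2 were above it on some arrays. At 16 or over on all arrays were 13 members, Foxm1, Foxf1 and Foxq1 reached 16 on some, and 31 were below 16 throughout. The 10 brightest probe sets were those of Foxj3, Foxl2, Foxo3, Foxp1, Foxo1, Tbx3, Foxn3, Foxj2, Foxk1 and Foxn2. The epithelial factor Foxa1 (mean log2 intensity 1.95), the regulatory T cell factor Foxp3 (1.75), and the limb and heart factors Tbx4 (2.40) and Tbx5 (2.77) lay in the background range.

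**Figure D1:**
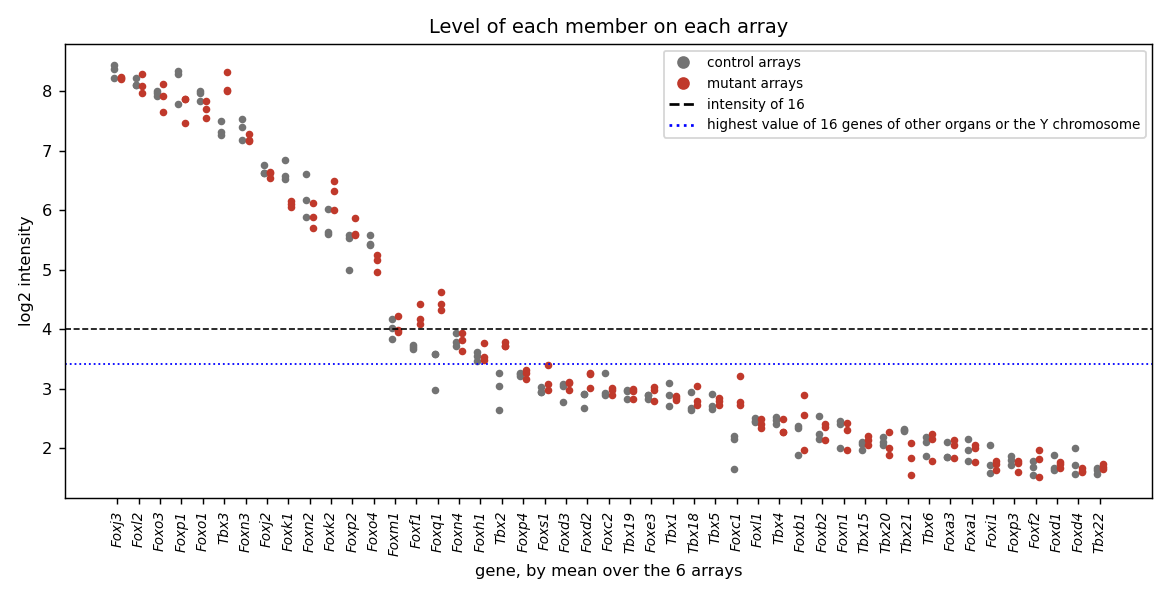
Log2 intensity of each of the 47 members on each array, with genes ordered by their mean over the 6 arrays, control arrays in grey and mutant arrays in red. An intensity of 16 is drawn as a dashed line and 3.41 as a dotted line, the latter being the highest value of 16 genes of other organs or of the Y chromosome; 28 members lie at or below the dotted line on all arrays.

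Mutant and control uteri were compared to find which of these factors differed with active β-catenin. Foxq1, Foxc1, Tbx3, Tbx2 and Foxf1 were higher in mutant uteri and Foxk1 was lower, by 0.53 to 1.08 on the log2 scale in size, and 41 members did not pass an adjusted p of 0.05 in limma. Over all genes 5.61% were called higher and 6.36% lower, so 5 members higher and 1 lower out of 47 together made 12.8%, against 12.0% of all genes. The median difference was -0.01 both for the members and for all genes. Every mutant array was above every control array for 6 members and below for 3, where over all genes these shares were 14.9% and 17.4%. The number of members called was thus near the background, and what follows describes single genes. In whole uterus, fewer cells of a type and less RNA per cell cannot be told apart. With 3 arrays against 3, an exact permutation test of a single gene cannot give a p below 0.10, so the calls rest on limma's pooled estimate of the spread.

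**Figure D2:**
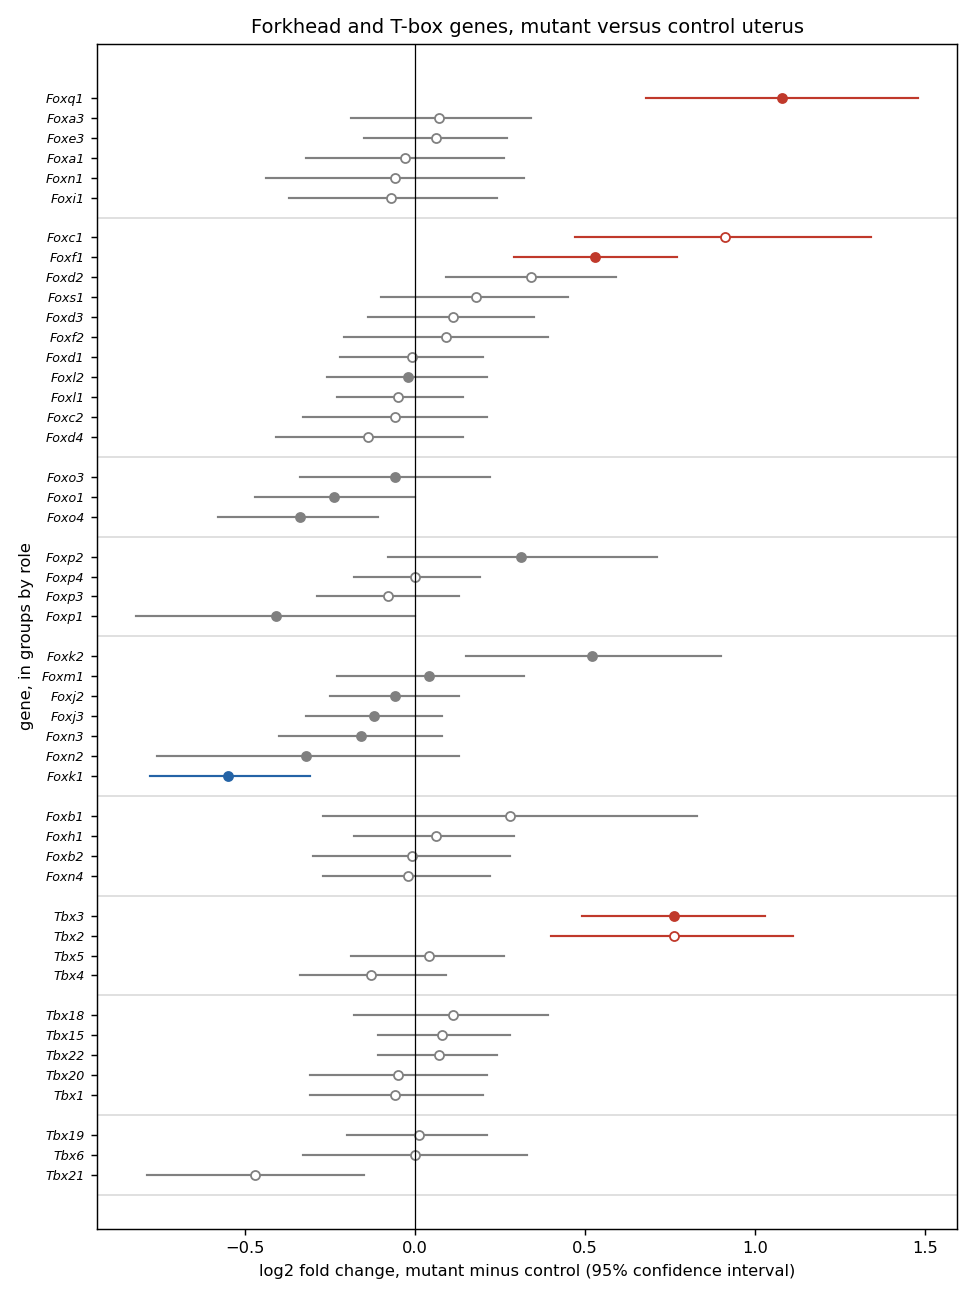
Log2 fold change of each member, mutant minus control, with its 95% confidence interval. Genes stand in blocks by role, from top to bottom: epithelial factors, mesenchymal and vascular factors, FoxO, FoxP, the FoxJ, FoxK, FoxM and FoxN factors, neural and embryonic factors, the Tbx2 subfamily, the Tbx1 subfamily, and Tbx6, Tbx19 and Tbx21. Red marks the 5 members called higher, blue the 1 called lower and grey those not called, and open points are genes under an intensity of 16 on all arrays.

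Among 6 forkhead factors of epithelia, Foxq1 was the only one called. Foxq1 is needed in the mouse for the inner structure of the hair shaft and for mucin in surface cells of the stomach. Its log2 intensities were 3.58, 2.98 and 3.58 on the control arrays and 4.32, 4.62 and 4.43 on the mutant arrays. Each mutant array was above 16 and each control array below it. The means were 3.38 ± 0.35 and 4.46 ± 0.15, a difference of 1.08 (SE 0.17, adjusted p 0.00870), or 2.11-fold. A second, dimmer probe set of Foxq1 rose by 1.70 (SE 0.31, adjusted p 0.0135 over all probe sets), from 1.70, 1.96 and 2.00 to 2.76, 4.05 and 3.95, and its suffix marks probes that may also match other transcripts. Foxa1, Foxa3, Foxe3, Foxi1 and Foxn1 were below 16 on all arrays, with differences between -0.07 and 0.07.

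Foxq1 lies on chromosome 13 beside Foxf2 and Foxc1, with no other protein-coding gene between neighbours. The 3 differences were 1.08 for Foxq1, 0.09 for Foxf2 and 0.91 for Foxc1, so the outer genes were called and the gene between them was not. Foxf2 lay in the background range on all 6 arrays (mean log2 intensity 1.72), so its small difference does not show that its RNA was unchanged. Foxc1, a factor of mesenchyme, vessels and the front of the eye, gave log2 intensities of 2.16, 2.20 and 1.65 in the controls and 2.78, 2.73 and 3.22 in the mutants. The groups did not overlap, and the means were 2.00 ± 0.31 and 2.91 ± 0.27 (SE of the difference 0.19, adjusted p 0.0208). All 6 values lay under the highest value of the background genes. The second probe set of Foxc1 differed by 0.41 and was not called (adjusted p 0.128).

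Promoters are shown for Foxc1 and its dim, uncalled neighbour Foxf2, because Foxc1 was the only called member with an entry in the RefSeq promoter table (GRCm38.p6). They were chosen after the values were seen. Each run holds 250 bases before and 50 bases after the annotated start, 5′ to 3′ on the plus strand, at chr13:31806396-31806695 for Foxc1 and chr13:31625566-31625865 for Foxf2. Capitals mark the CCAAT box, read on both strands and so also printed as ATTGG.
Foxc1: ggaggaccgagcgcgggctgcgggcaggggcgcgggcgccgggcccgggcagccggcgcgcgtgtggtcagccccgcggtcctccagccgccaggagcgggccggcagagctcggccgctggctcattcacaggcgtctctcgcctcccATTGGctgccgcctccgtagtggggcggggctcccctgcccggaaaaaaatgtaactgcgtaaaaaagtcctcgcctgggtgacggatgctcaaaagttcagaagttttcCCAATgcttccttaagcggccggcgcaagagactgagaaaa
Foxf2: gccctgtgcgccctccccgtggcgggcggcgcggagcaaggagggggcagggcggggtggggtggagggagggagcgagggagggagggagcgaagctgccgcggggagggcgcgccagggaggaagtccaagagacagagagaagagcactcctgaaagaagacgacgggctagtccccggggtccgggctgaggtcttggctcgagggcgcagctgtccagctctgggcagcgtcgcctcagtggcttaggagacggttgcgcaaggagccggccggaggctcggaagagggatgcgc
The Foxc1 run holds 2 CCAAT boxes, starting at bases 150 and 260, and the Foxf2 run holds none. Of 32851 promoters of this length in the table, 37.4% hold a CCAAT box. G and C make up 67.3% of the Foxc1 run and 71.3% of the Foxf2 run. On either strand, neither run holds the TCF/LEF core CTTTGA (in 16% of promoters), the forkhead core TGTTTA (13.4%) or the T-box core GGTGTGA (3.98%). Promoter entries were found for 31 of the 47 members, and the TCF/LEF core occurred in those of Foxp1 and Tbx22. These matches describe letters in a window and were not tested for binding.

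Of 11 forkhead factors of mesenchyme and vessels, Foxf1 was called beside Foxc1. Foxf1 is a hedgehog-responsive factor of lung and gut mesenchyme. Its log2 intensities were 3.66, 3.73 and 3.70 in the controls and 4.17, 4.42 and 4.08 in the mutants, and every mutant array was above every control array. The difference was 0.53 (SE 0.10, adjusted p 0.0172), from 3.70 ± 0.03 to 4.22 ± 0.17, or 1.44-fold. A dimmer probe set of Foxf1 showed -0.01 (adjusted p 0.973), so the call rests on 1 of its 2 probe sets. Foxc2 and Foxl1 lie near Foxf1 in the genome, were below 16 on all arrays and differed by -0.06 and -0.05. Foxd2, a factor of kidney mesenchyme, was higher on every mutant array but was not called (0.34, adjusted p 0.0877), and it too stayed in the background range.

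Foxl2 is the bright member of this group. It gave 8.23, 8.10 and 8.10 in the controls and 8.29, 8.09 and 7.98 in the mutants, and the groups overlapped. The difference was -0.02, with a 95% confidence interval from -0.26 to 0.21 (adjusted p 0.914). Ovary markers bear on this gene, since granulosa cells express it: of 12 measured, 10 were under 16 on all arrays, and limma called none of the 12, with 0 at an unadjusted p under 0.05. The summed intensity of the 12 markers ranged from 83.5 to 97.7 in the controls and from 80.1 to 85.6 in the mutants.

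In the Tbx2 subfamily, Tbx3 and Tbx2 rose together. Their genomic neighbours Tbx5 and Tbx4, both in the background range, differed by 0.04 and -0.13. Tbx2 and Tbx3 are repressors that act in limb, heart and mammary development and that hold down cell cycle inhibitors in cultured cells. Tbx3 gave log2 intensities of 7.31, 7.51 and 7.26 in the controls and 8.00, 8.32 and 8.03 in the mutants. It was the only one of the 13 members at 16 or over on all arrays that was called higher. Its means were 7.36 ± 0.14 and 8.12 ± 0.18, a difference of 0.76 (SE 0.12, adjusted p 0.00763), or 1.69-fold. The next brightest of its 5 probe sets rose by 1.00 (adjusted p 0.00159), from 6.75, 6.85 and 6.72 to 7.69, 7.98 and 7.65. The other 3 probe sets were dim and showed 0.20, 0.15 and -0.14, none of them called. The suffix of the brightest Tbx3 probe set marks probes that may also match other transcripts.

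Tbx2 is read by a single probe set, with 3.05, 3.27 and 2.64 in the controls and 3.72, 3.79 and 3.71 in the mutants. The groups did not overlap, but all 6 arrays were under 16, and the controls lay within the background range. The means were 2.99 ± 0.32 and 3.74 ± 0.04, and the difference was 0.76 (SE 0.15, adjusted p 0.0203).

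**Figure D3:**
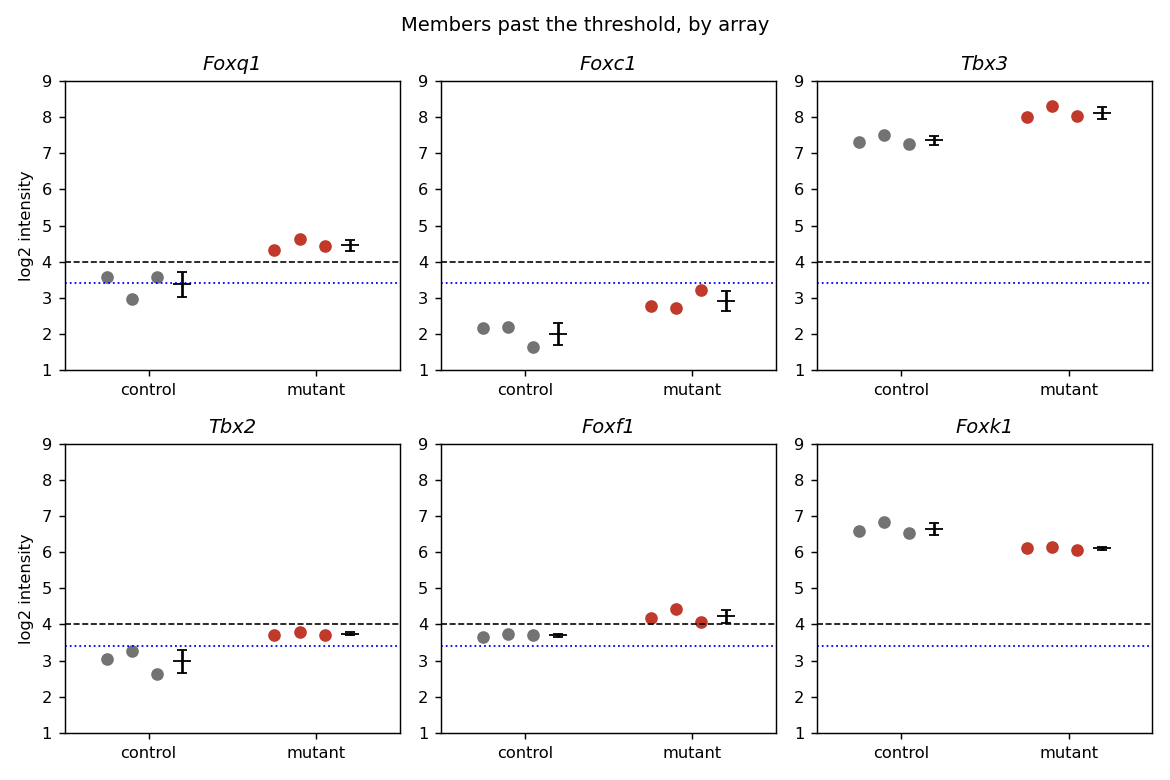
Log2 intensity on each array of the 6 members past the threshold, control arrays in grey and mutant arrays in red, with the mean and SD of each group as bars. An intensity of 16 is drawn dashed, and 3.41, the highest value of the background genes, is drawn dotted; Tbx3 and Foxk1 lie above both lines, and Foxc1 lies below both on all arrays.

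Foxk1 was the member called lower. It is a broadly expressed factor first described in muscle progenitor cells. Its log2 intensities were 6.58, 6.84 and 6.52 in the controls and 6.11, 6.15 and 6.06 in the mutants, without overlap. The means were 6.65 ± 0.17 and 6.10 ± 0.04, so Foxk1 fell by 0.55 (SE 0.10, adjusted p 0.0153), or 1.46-fold. The 2 other probe sets of Foxk1 were dim, and each showed -0.05.

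Its close relative Foxk2 lay on the other side of zero. Foxk2 gave 5.60, 5.63 and 6.02 in the controls and 6.0, 6.50 and 6.32 in the mutants, with 1 control array above the lowest mutant array. The difference of 0.52 (SE 0.16) missed the threshold (adjusted p 0.0812). Over its 5 probe sets the differences were 0.52, 0.49, 0.61, 0.10 and 0.10, and the one at 0.61 was called higher (adjusted p 0.0361 over all probe sets). The difference between the Foxk1 and Foxk2 changes was not tested.

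The remaining factors of this group were not called. Foxm1, which drives genes of the G2 phase and mitosis, gave 4.17, 3.83 and 4.02 in the controls and 3.96, 3.98 and 4.22 in the mutants (difference 0.04, adjusted p 0.862). Foxj3, a factor of muscle and the germ line, differed by -0.12 (adjusted p 0.442), Foxj2 by -0.06 (adjusted p 0.721), and the checkpoint factor Foxn3 by -0.16 (adjusted p 0.398). Foxn2 varied more within the groups, at 6.17, 6.61 and 5.89 against 5.89, 6.12 and 5.70 (difference -0.32, adjusted p 0.349). For all 5 of these genes the groups overlapped.

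The FoxO factors, which raise stress resistance, cell cycle arrest and cell death genes when growth factor signalling is low, were all at 16 or over, and none was called (2 of 3 had an unadjusted limma p under 0.05). Foxo1 gave 7.98, 8.00 and 7.83 in the controls and 7.70, 7.84 and 7.55 in the mutants. The difference was -0.24, with a confidence interval from -0.47 to -0.00 (adjusted p 0.186), and the groups overlapped at 1 array each. Foxo4 gave 5.58, 5.43 and 5.41 against 5.24, 4.97 and 5.17, without overlap (difference -0.34, SE 0.10, adjusted p 0.0684). Foxo3 overlapped, at 7.98, 8.00 and 7.93 against 7.66, 7.93 and 8.12 (difference -0.06, adjusted p 0.793).

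Foxp1, a repressor of many tissues, is the member with the most probe sets, 8. Its brightest gave 8.30, 8.35 and 7.79 in the controls and 7.87, 7.47 and 7.87 in the mutants, and was not called (difference -0.41, SE 0.18, adjusted p 0.188). The third control array lay among the mutant arrays. Its 6 bright probe sets all had negative differences, from -0.37 to -0.54. For 5 of those 6 every mutant array was below every control array, and 1 of them was called lower (-0.49, adjusted p 0.0247 over all probe sets). Probe sets of a gene read the same RNA and are not replicates. Foxp2, a relative known from the developing brain and lung, differed by 0.31 (adjusted p 0.302), and Foxp3 and Foxp4 were below 16.

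**Figure D4:**
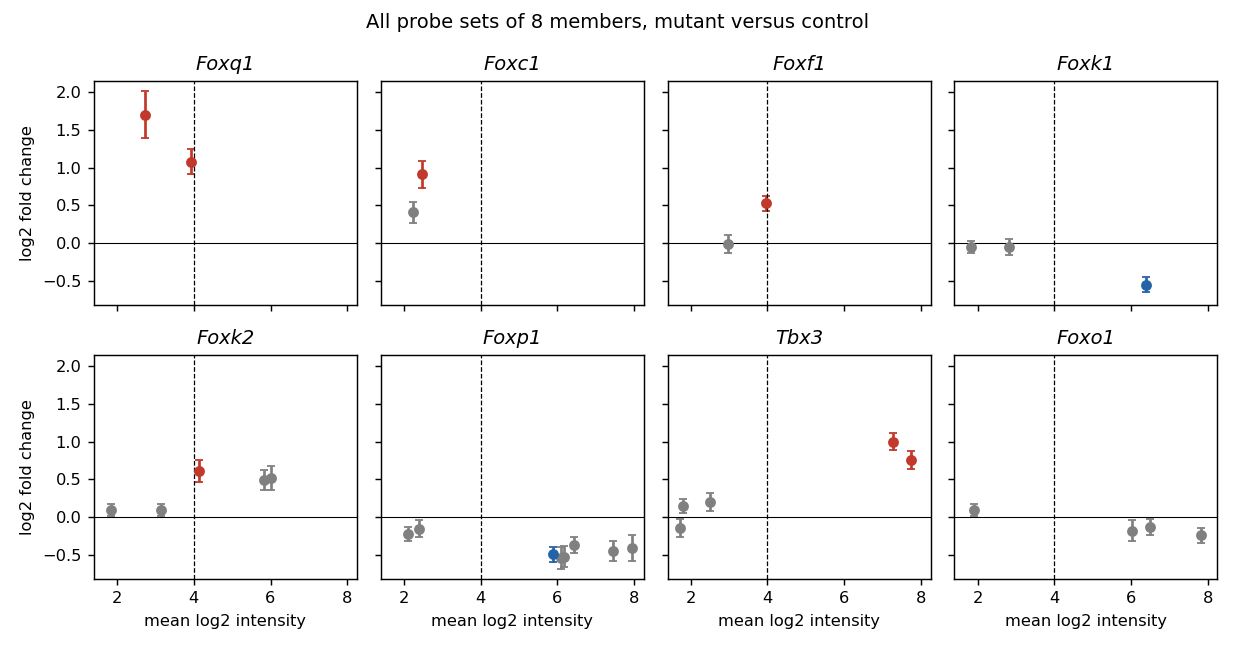
All probe sets of 8 members, plotted by mean log2 intensity (horizontal axis) and log2 fold change, mutant minus control (vertical axis), with SE bars; red and blue points passed the threshold over all probe sets, and an intensity of 16 is drawn dashed. The 2 bright probe sets of Tbx3 lie at 0.76 and 1.00, while the 6 bright ones of Foxp1 lie between -0.37 and -0.54.

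The other members gave little signal. The 4 neural and embryonic forkhead factors, the 5 measured factors of the Tbx1 subfamily, and Tbx6, Tbx19 and Tbx21 were under 16 on all arrays. Limma called none of them, and at an unadjusted p under 0.05 only Tbx21 passed. Tbx21, which directs type 1 helper T cells and natural killer cells, had every mutant array below every control array, at 2.28, 2.30 and 2.32 against 2.09, 1.54 and 1.84 (difference -0.47, adjusted p 0.0673). Of 14 T and natural killer cell markers, 1 was called lower, the natural killer receptor gene Ncr1 (-0.54, adjusted p 0.0469), whose values lay in the background range and whose call was lost when any 1 array was left out. Prf1, a gene of cytotoxic granules in the same list, had every mutant array above every control array and was not called (0.48, adjusted p 0.137). Cd3g, also in the list and not called, had every mutant array below every control array (-0.59, adjusted p 0.108). Nkg7, the 1 marker at 16 or over on all arrays, overlapped and was not called (-0.56, adjusted p 0.157). The summed intensity of the list was 120 to 152 in the controls and 112 to 126 in the mutants. The part of those cells in the Tbx21 values was not tested.

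Targets and partners of these factors were read next, in lists chosen with results of these data already known. Of 86 such genes 10 were higher and 9 lower, beside the 5.61% and 6.36% of all genes. Brighter genes were called more often, with 656 higher and 891 lower among the 9566 genes at 16 or over on all arrays (16.2% together). At that level were 22 of the FoxO targets that follow. Among 27 FoxO target genes 3 were higher and 6 lower, with a median of -0.12. Pdk4, which restrains glucose oxidation, rose by 1.34 (SE 0.20, adjusted p 0.00733), and S1pr1, a receptor that FoxO factors induce in lymphocytes, rose by 1.33 (SE 0.14, adjusted p 0.00171). Pik3ip1, an inhibitor of PI3 kinase, fell by 1.25 (SE 0.23, adjusted p 0.0151), and Tnfsf10, a death ligand, fell by 1.11 (SE 0.12, adjusted p 0.00157). Also called were Bcl2l11, higher (0.54, adjusted p 0.0478), and Gadd45a, lower (-1.10, adjusted p 0.00167). Cdkn1b (-0.70, adjusted p 0.0384), Txnip (-0.54, adjusted p 0.0116) and Cited2 (-0.33, adjusted p 0.0401) were called lower too. Textbook FoxO targets were thus found on both sides, with more called lower than higher. The FoxO target calls were 2 higher and 2 lower without the first control array, 3 and 4 without the second control array, where the median turned to 0.03, and 2 and 4 without the second mutant array. Pik3ip1 lost its call without the first control array.

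Among 15 genes that act on FoxO factors, 1 was higher and 2 lower. Skp2, a ubiquitin ligase subunit that targets Foxo1, rose by 0.71 (adjusted p 0.0209). Igf1r, the receptor of insulin-like growth factors, fell by 0.51 (adjusted p 0.0301), and the adaptor gene Irs1 fell by 0.30 (adjusted p 0.0395). These calls were not kept in every fit that left out 1 array. Irs1 lost its call in all 6 (adjusted p 0.0778 to 0.117), while its difference stayed between -0.32 and -0.28. Igf1r lost its call in 4, without the first or second control or the second or the third mutant array. Skp2 lost its call in 3, without the first control or the second or the third mutant array. Irs1 also lost it under quantile normalization and with a replicate block. None of 9 cofactors of the FoxP repressors was called by limma, and 0 had an unadjusted p under 0.05, the smallest being those of Gatad2a (0.19, adjusted p 0.263) and Hdac1 (0.15, adjusted p 0.329).

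Of 17 targets of Foxm1, 16 had positive differences, yet the only call was a decrease, in the phosphatase gene Cdc25b (-0.58, adjusted p 0.0389), which was lost without the first or the third control or the first or second mutant array. The mean log2 intensity of the list was 6.16, 3.65 and 6.32 on the control arrays and 6.08, 5.59 and 6.36 on the mutant arrays. The second control array stood far below the other 5. Foxm1 itself read 3.83 there, its lowest value and under 16. Dimmer Foxm1 probe sets that read 3.14 and 2.25 on that array were also lowest there, and the dimmest, at 1.63, was not. Without that array the median of the list went from 0.68 to -0.25.

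Of 7 genes known to be held down by Tbx2 or Tbx3, 2 were called, and both were higher. Cdkn1a, which encodes the cell cycle inhibitor p21, gave 4.44, 4.25 and 4.73 in the controls and 7.20, 7.44 and 7.59 in the mutants, a difference of 2.94 (SE 0.15, adjusted p 1.00e-04). Gja1, the connexin of many muscle and stromal gap junctions, rose by 1.25 (SE 0.16, adjusted p 0.00371). The other genes of the list were not called, and the median of the 7 was -0.10. Cdh1, the epithelial cadherin gene (-0.28, adjusted p 0.122), and Ndrg1, a growth arrest gene (-0.29, adjusted p 0.0980), had every mutant array below every control array. Cdkn2a had every mutant array above every control array (0.34, adjusted p 0.0793), with all its values in the background range. Of the 7 genes, 3 were under 16 on all arrays.

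Hedgehog genes were read because hedgehog signals induce Foxf1. Of 13, 4 were higher and none lower. The ligand gene Shh read 2.27, 2.27 and 2.48 in the controls and 6.31, 7.08 and 6.93 in the mutants, and rose by 4.44 (SE 0.19, adjusted p 8.94e-05). The uterine ligand gene Ihh rose by 2.48 (SE 0.30, adjusted p 0.00314). All control values of Shh and Ihh lay in the background range, so these differences are between signals and do not measure the fold change in RNA. The pathway inhibitor Hhip rose by 2.05 (adjusted p 0.00194) and the receptor gene Ptch1 by 0.92 (adjusted p 0.0262), and both are known targets of the pathway. The Hhip controls, at 2.70, 3.46 and 2.52, lay in or just above the background range, so the same limit holds for its difference. Gli1, another target and effector, differed by -0.10 (adjusted p 0.761). Gli2 (-0.45, adjusted p 0.0721), Gas1 (-0.47, adjusted p 0.0521) and Cdon (-0.46, adjusted p 0.0888) had every mutant array below every control array without being called. Gli3 (0.25, adjusted p 0.170) and the dim Dhh (0.06, adjusted p 0.660) had every mutant array above, also uncalled. In all, 6 of the 13 were above and 3 below without overlap, where over all genes these shares were 14.9% and 17.4%. The median of the list was 0.06. Ptch1 lost its call without the first control, the second mutant or the third mutant array, and without the first mutant array the list had 4 higher and 3 lower.

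Of 5 further forkhead and T-box genes outside the rule, 2 were called. Foxa2, the gland factor, read 4.99, 5.25 and 4.88 in the controls and 6.23, 6.71 and 6.82 in the mutants, and rose by 1.54 (SE 0.17, adjusted p 0.00193). Foxj1, the factor of motile cilia, rose by 0.34 (adjusted p 0.0401) from 2.27 ± 0.06 to 2.60 ± 0.09, inside the background range. Its call was lost when any 1 array was left out.

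Markers of the cells that could carry these factors also moved. Of 7 adipocyte markers, 3 were called higher and all 7 had every mutant array above every control array. Their summed intensity was 191 to 1430 in the controls and 2480 to 3900 in the mutants, and Retn (2.35), Cidec (1.82) and Lipe (0.74) were the called genes. The lowest control sum was that of the third array, and the other control arrays gave 1000 and 1430. Retn lost its call without the first control array or any 1 mutant array. Oviduct and ciliated cell markers summed to 40.3 to 54.8 and to 80.2 to 386, with Dynlrb2 up by 3.50 (adjusted p 0.00110) and Tekt1 by 0.44 (adjusted p 0.0131, lost without the first control array). The top of that range was the third mutant array, where Ovgp1 alone gave 258 of 386, and the first and second mutant arrays summed to 87.2 and 80.2. Without Ovgp1, which was not called (adjusted p 0.350), the sums were 30.6 to 34.7 in the controls and 60.3 to 128 in the mutants. The control values of Dynlrb2 and all values of Tekt1 lay in the background range. Neither the adipocyte list nor the oviduct list was tested for its part in the higher signals of Foxq1, Foxc1, Foxf1, Tbx2 and Tbx3.

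Other marker lists moved less evenly. Of 11 epithelial markers 3 were lower, Wnt7a (-1.71, adjusted p 0.00531), Elf3 (-0.85, adjusted p 0.0301) and Krt18 (-0.80, adjusted p 0.00584). Their summed intensity was 4940 to 5750 in the controls and 3570 to 5000 in the mutants. Of 11 stromal markers, Hand2 rose by 1.49 (adjusted p 0.00315) and Pgr, whose promoter drives Cre here, fell by 0.97 (adjusted p 0.00270). The mutants carry the cre allele of Pgr and the controls may not. For Pgr, effects of that allele and of β-catenin cannot be told apart. Every mutant array was below every control array for 5 stromal markers and above for 1, against 17.4% and 14.9% of all genes. The summed intensity of the stromal list was 21500 to 22000 in the controls and 19000 to 20500 in the mutants. Limma called none of 10 smooth muscle, 6 pericyte and 7 mesothelial markers (3, 2 and 2 had an unadjusted p under 0.05). Among 13 endothelial markers Flt1 rose by 0.49 (adjusted p 0.0381) and Tek fell by 0.85 (adjusted p 0.0282). Elf3, Flt1 and Tek each lost the call in 4 of the 6 fits that left out 1 array, among them the one without the first control array. The part of these cells in the members' values was not tested.

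The calls differed in how well they held when 1 array was left out. Foxq1 and Tbx3 passed in each of the 6 fits that left out 1 array, at adjusted p 0.00788 to 0.0404 and 0.0110 to 0.0402. Without the first control array, Foxc1 (adjusted p 0.0563), Tbx2 (0.0667), Foxf1 (0.0749) and Foxk1 (0.0525) were no longer called. In that fit the calls over all genes also fell, from 1021 higher and 1157 lower to 480 and 372. Foxf1 was also lost without the third control array (adjusted p 0.0510), and Tbx2 without the second (0.0766) or the third mutant array (0.0516). With the mean of its probe sets in place of the brightest one, Foxk1 showed -0.22 (adjusted p 0.0987) and Foxp1 -0.39 (adjusted p 0.0496), which exchanged their calls.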

How the data were processed

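The values deposited by the authors are linear intensities, 1 for each probe set on each array. The submitters' processing notes name RMA with no version. The design had allowed for log2 values, so log2 was taken after a floor of 1, which changed 0 values. Array medians were 7.23 to 7.42. Gene symbols came from the platform annotation held by GEO: 34945 of 45037 probe sets had 1 symbol, 932 had several and 9160 had none. Each of 18193 genes was read by its brightest probe set (mean over 6 arrays).

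The groups were fitted without covariates in limma 3.58.1 (R 4.3.3, functions lmFit and eBayes), and p-values were adjusted by Benjamini-Hochberg over all genes, with a threshold of 0.05. The script was tested on simulated data. No labels give a scan date or slide, so no batch was tested. At most 2.11% of probe sets had identical values in a pair of arrays. The number of arrays limits the precision.

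The members and lists were chosen with earlier results of these data known. Named members are those past the threshold, any with a log2 change of 1 or more, and the 10 brightest. Of each list the 4 largest called changes are named, or the 2 smallest p values. Others, among them Foxk2, Foxo4, Foxd2, Foxp2, Foxm1 and Tbx21, were chosen after their values were seen. The 18 alternatives were other scalings, summaries, filters and tests, array weights, a replicate block and arrays left out. The ChIP-seq and the paper's other experiments were not analysed here.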

Additional observations from a re-analysis of the deposited data

How the results depend on the processing

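Of 5 members called higher and 1 lower, 3 and 1 were called without the lowest 40% of genes. In that setting 17 of the 47 members were tested. With a floor of 16, 0 and 0 members were called, and over all genes 283 were higher and 243 lower. That floor sets 7401 genes, among them Foxc1 and Tbx2, to the floor on all arrays. Tbx3 and Foxk1 lay above the floor on all arrays, so their values were unchanged, yet they also lost their calls. For these genes the floor could act only through limma's pooled estimate of the spread and the adjustment over all genes. The methods' t-test with Benjamini-Hochberg adjustment called 0 and 0 members, and 105 genes higher and 39 lower over all genes. At an unadjusted p under 0.05 that test gave 6 and 3 members and 1924 and 2224 genes, and limma with the floor gave 3 and 2 members. Array weights gave 7 and 3, the fold change above 1.5 with an unadjusted p under 0.05 gave 4 and 0, and 2 arrays against 2 gave 4 and 0. Leaving out 1 array gave 2 to 6 higher, with 2 without the first control array, and 0 to 2 lower. Over all genes these fits gave 480 to 971 higher and 372 to 1139 lower, against 1021 and 1157 with all 6 arrays. Of the target, regulator and partner genes, 10 higher and 9 lower became 4 and 3 with the floor of 16 and 2 and 0 with the t-test (13 and 13 at an unadjusted p under 0.05). The lower count was 4 by the fold rule, 3 with 2 arrays against 2 and 2 to 9 on leaving out 1 array, with 2 without the first control array, 5 without the second control array and 4 without the second mutant array. Small differences changed sign, none of them called: Foxl2 (-0.11 to 0.05 on leaving out 1 array), Foxo3 (-0.17 to 0.06, and 0.07 with 2 arrays against 2) and Foxn3 (0.04 with the mean of its probe sets). The causes were not tested beyond what the settings themselves fix.

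Same-numbered arrays of the groups correlated at 0.01, 0.21 and 0.16 in their deviations, so the numbers were not taken to pair the arrays. With a replicate block 4 members were higher and 1 lower, and Foxc1 lost its call (adjusted p 0.0502).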
